A study of Mus musculus with 24 samples.

Results

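The expressed Zfp genes are the mouse zinc finger genes with a numbered Zfp symbol whose transcripts were measurable in the tibialis anterior (TA), a fast hindlimb muscle. They were chosen by their level in these data: a protein-coding gene whose symbol is Zfp followed only by digits was taken when its mean over all 24 mice was at least 2 CPM, the count scaled to the total of the library. Of 365 such genes in the count tables, 220 met the level and 145 did not, 13 of which had no count in any mouse. The tables list 55487 gene identifiers, and 10232 protein-coding genes reached the same level. Because the mean level chose the members, their levels are a description only. At the threshold, Zfp948 (2.00 CPM), Zfp11 (2.01 CPM) and Zfp14 (2.11 CPM) were the members just inside, and Zfp709 (2.00 CPM after rounding), Zfp454 (1.97 CPM) and Zfp961 (1.94 CPM) lay just outside.

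Photobiomodulation therapy (PBMT) exposes tissue to red or near-infrared light at low doses. Male wild-type C57BL/6J mice aged 5 to 7 weeks were shaved and held under anesthesia for 20 min, and the treated animals received 830 nm light at 25 mW/cm2 for 20 min, a fluence of 30 J/cm2, while the controls received no light. TA muscle was taken 24 h after the light, either from sedentary mice or from mice that had just run to exhaustion on a treadmill, which gives 4 groups of 6 mice, a control and a PBMT group in each state. Poly(A) RNA was sequenced with each mouse as its own library, and the sedentary and the fatigued mice formed separate sequencing projects, so the exercise state and the project cannot be told apart. Library totals ran from 43271093 to 46904076 counts in sedentary controls, from 46327516 to 52775844 in sedentary PBMT, from 56792327 to 68726155 in fatigued controls and from 53122528 to 68566029 in fatigued PBMT. The 220 members together took between 0.367% and 0.546% of a library.

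Most Zfp genes encode proteins with arrays of C2H2 fingers, small zinc-bound folds that each read a few bases of DNA. A large subset also carries a KRAB domain, which recruits the corepressor Trim28 together with the histone methyltransferase Setdb1 and heterochromatin proteins, and is best known for silencing transposable elements and imprinted loci. A few genes with a Zfp name have no C2H2 array at all, among them Zfp36 (tristetraprolin), which binds AU-rich elements of mRNA through CCCH fingers and promotes their decay. Counts are from whole muscle, so fewer cells of a type and less RNA per cell cannot be told apart.

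By a search of proteins translated from the annotated transcripts, 95 members carried a KRAB A box and C2H2 fingers, 121 carried fingers without a KRAB match, and 4 had no C2H2 finger (Zfp36, Zfp330, Zfp503 and Zfp703). Without KRAB means here only that the search found no match. The median number of fingers was 12 in the KRAB genes (range 3 to 23) and 8 in those without KRAB (range 1 to 36), and 119 members had at least 10. Members were long and AT-rich: their median exon length was 4978.5 bases and the median GC content of the longest transcript 44.9%, against 4518 bases and 49.9% in the other protein-coding genes tested. The GC content was lower in the KRAB genes (median 41.4%) than in the fingers without KRAB (48.8%). Per kilobase of exon, the median level was 1.08 CPM in the KRAB genes, 1.85 CPM in those without KRAB and 2.21 CPM in the other protein-coding genes. The highest level per kilobase was that of Zfp106, an RNA-binding protein needed for the upkeep of motor neurons and muscle, at 170 CPM per kb, followed by Zfp651 (25), Zfp91 (21.9), Zfp768 (14.3) and Zfp358 (14.1).

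The members are clustered in the genome, with 52 on chromosome 7 and 26 on chromosome 17 (build GRCm38). Zinc finger genes arise by tandem duplication, and 15 members, 13 of them KRAB genes, shared over 10% of the 100-base windows of their longest transcript with some other gene, led by the pair Zfp960 (68.3%) and Zfp97 (67.3%). For 177 members no such window was shared. Exons of 60 members overlap exons of another gene on the opposite strand, and the strand setting of the counting is not known here. The repeated unit can be seen in the coding sequence: TGTGGGAAAGCCTT, 14 bases that encode the start of a finger, occurs in 56 of the 220 members and in 43 of the 95 KRAB genes, against 72 of 21731 other coding genes (0.331%). The copies listed here, each with 8 bases on either side and with the shared stretch in capitals, come from members picked because they hold it. Their likeness in the capitals was fixed by that choice, and most members lack the stretch. The members shown are Zfp26 (6 copies, chromosome 9), Zfp74 (5 copies, chromosome 7), Zfp563 (4 copies, chromosome 17), Zfp101 (3 copies, chromosome 17), Zfp189 (2 copies, chromosome 4) and Zfp85 (1 copy, chromosome 13).
Zfp26: gtaaggaaTGTGGGAAAGCCTTcactgagc
Zfp74: gcaacgagTGTGGGAAAGCCTTccctcgcg
Zfp563: gtcatcaaTGTGGGAAAGCCTTttcttctt
Zfp101: gtaagaaaTGTGGGAAAGCCTTcaaacgtt
Zfp189: gtgaggagTGTGGGAAAGCCTTcagtagaa
Zfp85: gtgaacaaTGTGGGAAAGCCTTtaaagact

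One library stood apart before any comparison was made. In sedentary control replicate 4, mitochondrially encoded genes took 3.24% of the counts, against 15.5% to 17.0% in the other sedentary controls and 13.8% to 17.1% in sedentary PBMT. Its 9 fast-fibre markers summed to 155193 CPM, above the next sedentary control at 123003 CPM, and its mean log2 CPM over the KRAB genes was 2.17, below the 2.44 to 2.78 of the other sedentary controls. Over the fingers without KRAB its mean (3.44) lay within their range of 3.30 to 3.52. Values without this mouse are given beside most of the main counts and medians that use the sedentary controls. Exceptions include the joint signs of the separate PBMT comparisons and the counts of groups that did not overlap. The PBMT medians of the corepressor list and the values of the Zfp genes below the level are also given with all mice only. The cause of the difference of this mouse was not tested.

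The sedentary comparison sets PBMT against control mice in resting muscle. By the paper's account there was no sham-light or heat-only control, so light and any heating from it cannot be told apart. Most members were slightly higher after PBMT. Of the KRAB genes 80 of 95 had a positive log2 fold change, with a median of 0.12, and of the fingers without KRAB 80 of 121, with a median of 0.06. Across all members the median was 0.09 with 163 of 220 higher (74.1%), against a median of -0.0019 and 49.6% higher among all 14177 genes tested. The mean over KRAB genes was 2.17, 2.64 and 2.78 log2 CPM (lowest, median and highest mouse) in sedentary controls and 2.60, 2.72 and 2.84 in sedentary PBMT. The groups overlapped: the lowest control was replicate 4, and 3 of the other controls lay inside the PBMT range. Without replicate 4 the medians were 0.07 over KRAB genes (69 of 95 higher), 0.06 over fingers without KRAB (93 of 121 higher) and 0.07 over all members (165 higher). With limma voom they were 0.07 over KRAB genes and 0.07 over fingers without KRAB, so the gap between the classes was smaller in both. Leaving out 1 mouse at a time gave medians from 0.07 to 0.16 over KRAB genes and from 0.04 to 0.07 over fingers without KRAB.

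No member passed the adjusted test in sedentary muscle. edgeR called 0 of 220 members, where 0.0282% of all genes were called, and the smallest adjusted p of a member was 0.349. At an unadjusted p under 0.05, 20 members were higher, where the background among all genes was 3.33%, and 1 was lower, where it was 4.30%. DESeq2 and limma voom also called 0 members, with 25 higher and 1 lower by DESeq2 and 30 higher and 3 lower by limma voom at an unadjusted p under 0.05, where 2.12% and 2.90% of the genes of DESeq2 and 6.72% and 7.79% of those of limma voom were. Without sedentary control replicate 4 the counts were 18 higher and 3 lower, where the background was 4.39% and 4.89%, with 0 called. The groups did not overlap for 2 members, Zfp719 and Zfp639, both higher, where the background was 0.233% for higher genes and 0.254% for lower genes.

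Among the KRAB genes, Zfp719 had the largest difference. Zfp719 (ENSMUSG00000030469, chromosome 7, 43579610 to 43593235, plus strand, 13 fingers) stood at 2.55, 3.51 and 4.59 CPM in sedentary controls (lowest, median and highest) and at 4.66, 4.89 and 5.65 CPM after PBMT. All 6 PBMT mice lay above all 6 controls. Its log2 fold change was 0.46 (SE 0.13) with an edgeR adjusted p of 0.349, and the exact permutation p was 0.00216, the smallest that 924 arrangements of 6 against 6 mice can give; without control replicate 4 the log2 fold change was 0.38. Zfp85 (ENSMUSG00000058331, chromosome 13, 67747800 to 67755228, minus strand, 14 fingers) stood at 1.54, 2.13 and 2.57 CPM in controls and at 2.50, 2.87 and 3.20 CPM after PBMT. 5 of 6 PBMT mice exceeded every control, and the groups overlapped only at the lowest PBMT mouse. The log2 fold change of Zfp85 was 0.41 (SE 0.14, edgeR adjusted p = 0.506, exact permutation p = 0.00433), and 0.33 without control replicate 4. Zfp39 stood at 2.27, 4.00 and 5.02 CPM in controls and at 4.46, 4.97 and 5.65 CPM after PBMT, with 3 of 6 PBMT mice above every control. Its log2 fold change was 0.38 (SE 0.15, edgeR adjusted p = 0.607) and 0.26 without control replicate 4, whose level was the lowest of the group.

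Of the fingers without KRAB, Zfp608, a relative of the chromatin-associated Zfp609, stood at 1.91, 2.2 and 2.41 CPM in sedentary controls and at 2.01, 3.13 and 3.53 CPM after PBMT. 5 of 6 PBMT mice exceeded every control, and replicate 6 lay among the controls. The log2 fold change of Zfp608 was 0.47 (SE 0.15, edgeR adjusted p = 0.412, exact permutation p = 0.0130) and 0.43 without control replicate 4. Zfp275 was higher by 0.36 (SE 0.15, edgeR adjusted p = 0.626) with 2 of 6 PBMT mice above every control, by 0.28 without control replicate 4 and by 0.19 with limma voom. Zfp143, an activator that binds promoters and chromatin loop anchors, stood at 5.98, 7.52 and 8.95 CPM in controls and at 7.50, 9.53 and 10.2 CPM after PBMT. 4 of 6 PBMT mice lay above every control, with a log2 fold change of 0.31 (SE 0.10, edgeR adjusted p = 0.493). In the opposite direction, Zfp189 (ENSMUSG00000039634, chromosome 4, 49521176 to 49531517, plus strand, 16 fingers) stood at 3.84, 5.28 and 6.83 CPM in controls and at 3.45, 4.03 and 5.36 CPM after PBMT. The groups overlapped, with 2 of 6 PBMT mice below every control. Zfp189 had a log2 fold change of -0.35 (SE 0.14, edgeR adjusted p = 0.605, exact permutation p = 0.0433) and of -0.43 without control replicate 4. The next smallest p among lower members belonged to Zfp959 (log2 fold change -0.26) and Zfp579 (-0.15, or -0.10 without control replicate 4), neither of which passed the adjusted test.

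The fatigued comparison sets PBMT against control mice in muscle taken at exhaustion, and there the members leaned slightly the other way. The paper reports longer runs after PBMT than in controls, so light and run time cannot be told apart in this comparison. KRAB genes had a median log2 fold change of -0.06 with 25 of 95 higher, fingers without KRAB one of -0.03 with 45 of 121 higher, and all members one of -0.04 with 73 of 220 higher (33.2%). Among all 14574 genes tested the median was 0.0041 and 52.0% were higher. The mean over KRAB genes was 2.25, 2.35 and 2.44 log2 CPM in fatigued controls and 2.07, 2.30 and 2.44 in fatigued PBMT, so the groups overlapped. PBMT replicate 3 was the lowest mouse. Without it the median over members was -0.01 with 102 of 220 higher, that over KRAB genes -0.02 and that over fingers without KRAB 0.0012. edgeR called 0 members (0.00% of all genes were called); at an unadjusted p under 0.05, 0 members were higher, where the background was 1.08%, and 7 were lower, where it was 0.501%. DESeq2 also called 0, with 0 higher and 7 lower at an unadjusted p under 0.05 (1.08% and 0.558% of its genes), whereas limma voom called 0 with 3 higher and 3 lower (1.84% and 1.00%) and a median of -0.01 (-0.02 over KRAB genes and 0.0027 over fingers without KRAB), so the lean was small and the sign of the latter was not kept. With the replicate numbers as a block, 0 were higher and 3 lower. The groups did not overlap for 0 members, where the background was 0.0137% for higher genes and 0.0206% for lower genes.

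Zfp41 (ENSMUSG00000047003, chromosome 15, 75616679 to 75629827, plus strand, 4 fingers without KRAB) had the largest difference in fatigued muscle, from 2.08, 2.72 and 2.94 CPM in controls to 1.66, 1.97 and 2.48 CPM after PBMT. 5 of 6 PBMT mice lay below every control. Its log2 fold change was -0.38 (SE 0.14) with an edgeR adjusted p of 1.00 and an exact permutation p of 0.0130. Among KRAB genes, Zfp141 stood at 3.23, 3.93 and 4.29 CPM in controls and at 2.46, 3.14 and 3.72 CPM after PBMT, with 4 of 6 PBMT mice below every control. Zfp141 had a log2 fold change of -0.28 (SE 0.12, edgeR adjusted p = 1.00, exact permutation p = 0.0281). Zfp667, also a KRAB gene, was lower by a similar amount (log2 fold change -0.22, SE 0.09), with 5 of 6 PBMT mice below every control, and Zfp942 (-0.25) with 1 of 6. Without KRAB, Zfp668 had a log2 fold change of -0.26 (SE 0.12) with 3 of 6 PBMT mice below every control. On the higher side the smallest p belonged to Zfp277, a Polycomb-associated protein (log2 fold change 0.14, SE 0.07), Zfp521, a regulator of mesenchymal lineage choice (0.23, SE 0.12, and 0.13 to 0.29 with 1 mouse left out at a time), and Zfp36 (0.37, SE 0.20, and 0.23 to 0.48), none past the adjusted test.

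**Figure D1:**
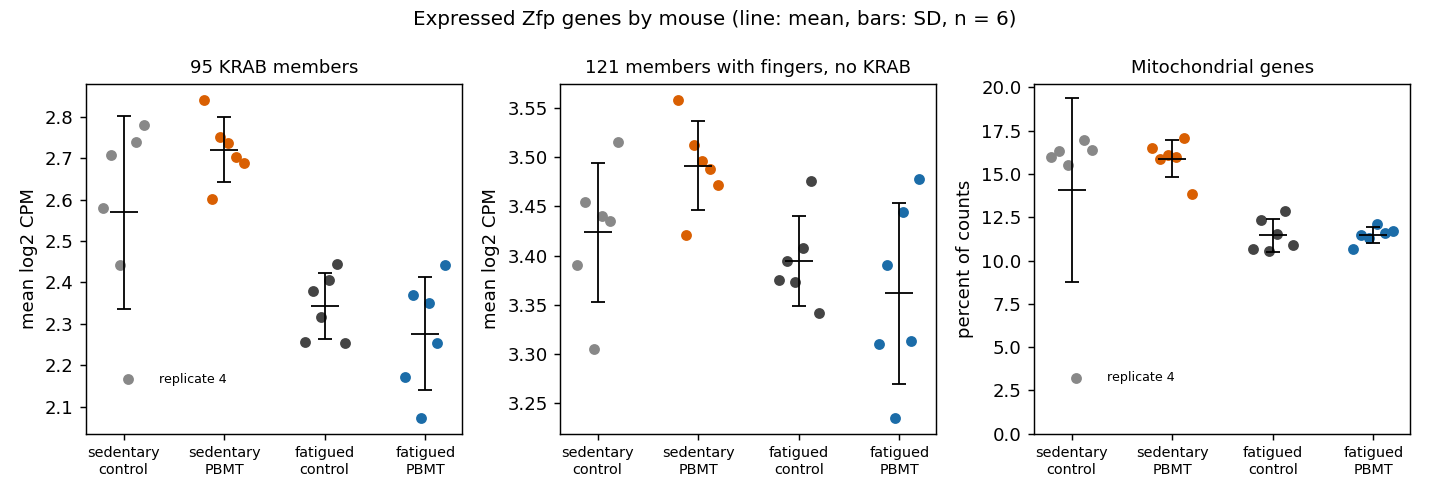
Mean log2 CPM over the KRAB genes (left) and over the fingers without KRAB (middle) and the percent of counts from mitochondrial genes (right), 1 point per mouse in 4 groups of 6; horizontal bars are group means and whiskers 1 SD. The KRAB means of fatigued mice (2.07 to 2.44) lie mostly below those of sedentary mice (2.17 to 2.84), and the lowest mouse in the left panel is fatigued PBMT replicate 3. Sedentary control replicate 4 is the lowest sedentary mouse there (2.17) and the lowest of all mice in the right panel (3.24%).

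The difference between the states was tested directly, as the PBMT effect in fatigued mice less that in sedentary mice. Because of the longer runs reported with PBMT, light and run time cannot be told apart in it either. The median over KRAB genes was -0.20 with 14 of 95 above 0, that over fingers without KRAB -0.08 with 36 of 121 above 0, and that over all members -0.12 with 53 of 220 above 0 (24.1%). All 15108 genes tested had a median of 0.02, with 53.7% above 0. edgeR called 0 members, where 0.00662% of all genes were called, and the smallest adjusted p of a member was 0.946. At an unadjusted p under 0.05 the difference was above 0 for 1 member (background 2.95%) and below 0 for 19 members (background 1.45%); DESeq2 gave 1 and 20 (2.04% and 1.05% of its genes) and limma voom 1 and 12 (3.87% and 2.61%), each with 0 called. The medians without sedentary control replicate 4 were -0.12 over all members, -0.14 over KRAB genes and -0.12 over the rest with fingers, and limma voom gave -0.11 over KRAB genes. By the signs of the separate comparisons, which share no mouse, 110 members were higher in sedentary and lower in fatigued muscle, 20 the reverse, 53 higher in both and 37 lower in both. With 163 of 220 members higher in sedentary and 147 lower in fatigued muscle, the first of these counts had to be the largest. The joint signs are therefore a description of those separate leans and no test of a reversal.

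The 5 members with the lowest differences between states were KRAB genes with a positive log2 fold change in sedentary muscle. Zfp719 differed by -0.56 (SE 0.21, edgeR adjusted p = 0.946): against its higher level after PBMT in sedentary mice, fatigued mice stood at 2.25, 3.15 and 4.22 CPM in controls and at 2.11, 2.81 and 3.72 CPM after PBMT. Zfp85 differed by -0.55 (SE 0.20, edgeR adjusted p = 0.946), with 1.45, 1.94 and 2.26 CPM in fatigued controls and 1.32, 1.76 and 1.98 CPM in fatigued PBMT. In both genes the fatigued groups overlapped. Zfp28 (-0.47), Zfp942 (-0.45) and Zfp39 (-0.45) followed, with Zfp605, which has no KRAB match, next (-0.45). Without sedentary control replicate 4 the values were -0.49 for Zfp719, -0.48 for Zfp85, -0.41 for Zfp28, -0.34 for Zfp942 and -0.34 for Zfp39. With limma voom Zfp719 differed by -0.34 and Zfp942 by -0.30. Zfp189, in which the search found no KRAB match, differed in the other direction and was the member with a difference above 0 at an unadjusted p under 0.05 (0.47, SE 0.19, edgeR adjusted p = 0.946), followed by Zfp593 (0.34, and 0.13 without sedentary control replicate 4) and Zfp579 (0.30, and 0.12 with limma voom). Zfp189 stood at 4.19, 5.56 and 6.27 CPM in fatigued controls and at 4.65, 5.96 and 7.02 CPM after PBMT, with 3 of 6 PBMT mice above every control.

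**Figure D2:**
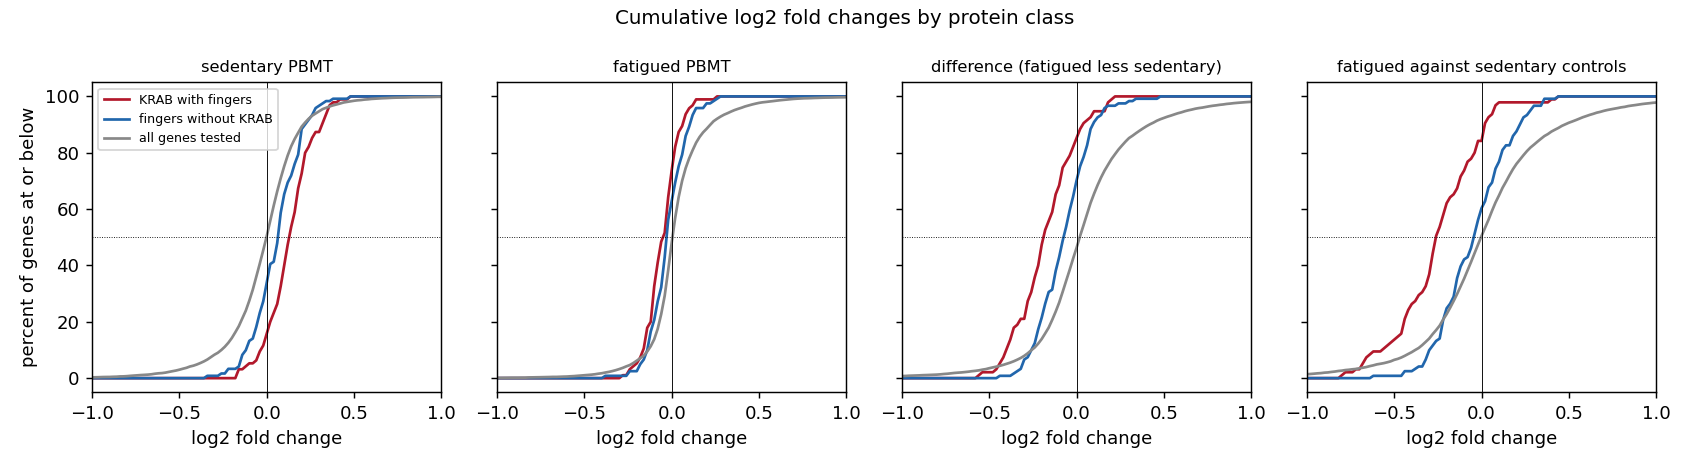
Cumulative share of genes against the log2 fold change, in 4 panels for sedentary PBMT, fatigued PBMT, the difference between them and fatigued against sedentary controls; the lines are the KRAB genes (95), the fingers without KRAB (121) and all genes tested. The KRAB line lies to the right of all genes in sedentary PBMT (median 0.12 against -0.0019, and 0.07 without sedentary control replicate 4) and to the left in the other panels (medians -0.06, -0.20 and -0.26).

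Because members are AT-rich and long, their fold changes were set beside those of other genes of like length and GC content. In sedentary PBMT the log2 fold change was lower at higher GC content across all genes (Spearman correlation -0.306 over 14165 genes) and higher at greater exon length (0.303). Genes are not independent, and these are descriptions. The GC correlation depended on sedentary control replicate 4. It was -0.0177 without this mouse, where that with length was 0.239. The median over genes other than members in the lowest of 10 GC classes (median GC 39.6%) was 0.08 and that in the highest class (59.5%) was -0.09, and without replicate 4 they were 0.01 and 0.01. In the difference between states the same correlations were 0.266 with GC content and -0.235 with length, and without replicate 4 they were 0.0443 and -0.181. In fatigued PBMT they were 0.0760 and -0.0226. Each member was compared with the median of the other genes in its cell of a grid of 10 length classes by 5 GC classes. Like genes had a median of 0.03 in sedentary PBMT, and members exceeded them by a median of 0.07, with 163 of 220 above. The excess was 0.09 in KRAB genes (78 of 95 above) and 0.04 in fingers without KRAB (83 of 121 above). Without replicate 4 like genes had a median of 0.0043, and the excess was 0.06 over all members (157 of 220 above), 0.06 in KRAB genes and 0.06 in fingers without KRAB. In fatigued PBMT members lay below like genes by a median difference of -0.04 (76 of 220 above), and in the difference between states by -0.10 (49 of 220 above, and -0.10 with 54 above without replicate 4).

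Within the family, the correlation of the log2 fold change with GC content was -0.439 in sedentary PBMT and 0.462 in the difference between states, and without sedentary control replicate 4 it was 0.0333 and 0.0999. Between the control groups it was 0.493, and 0.643 without that mouse. The 74 members of lowest GC content (33.2% to 41.7%, 50 of them KRAB genes) had a median of 0.15 in sedentary PBMT and -0.21 in the difference between states. The 74 members of highest GC content (49.7% to 68.7%, 11 of them KRAB genes) had medians of 0.02 and -0.01. Without replicate 4 the sedentary medians were 0.06 and 0.06, and those of the difference -0.14 and -0.08. By finger number there was no steady order: the sedentary median was 0.07 with 1 to 4 fingers (20 of 32 higher), 0.06 with 5 to 9 (40 of 65), 0.12 with 10 to 14 (70 of 78) and 0.09 with 15 or more (30 of 41). Without replicate 4 these medians were 0.04, 0.05, 0.08 and 0.07. With a GC trend removed in each library, the sedentary medians were 0.09 in KRAB genes and 0.07 in fingers without KRAB. KRAB content, finger number and GC content go together in these genes, and their parts were not tested separately.

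**Figure D3:**
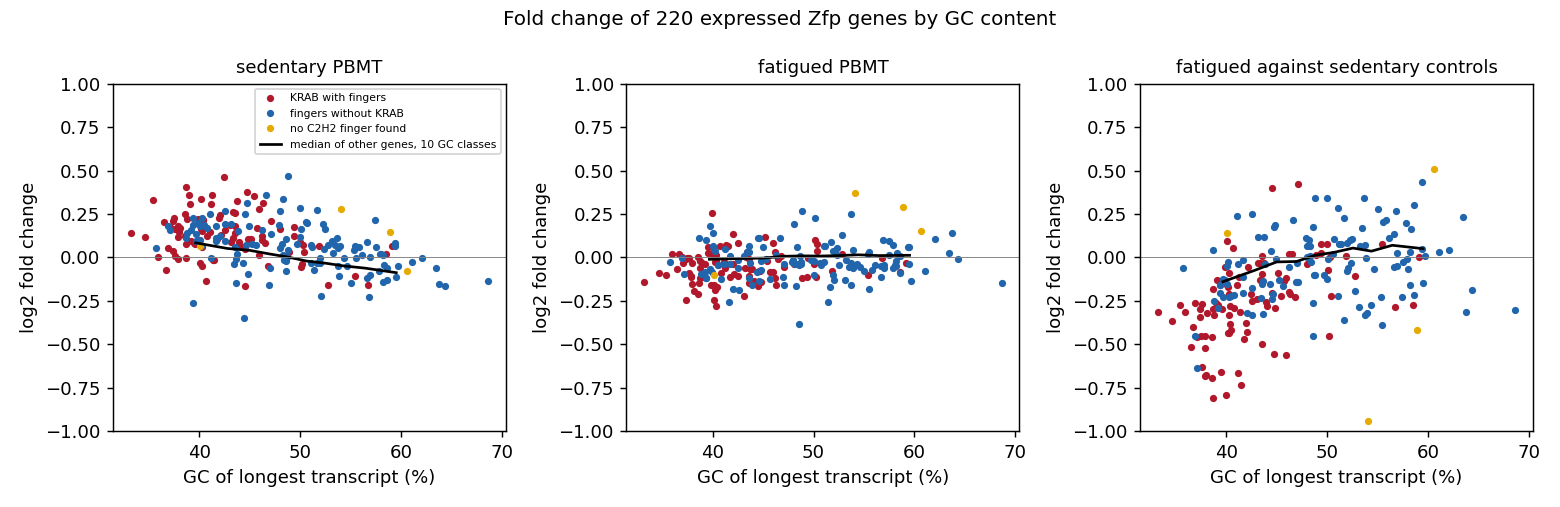
Log2 fold change of each member against the GC content of its longest transcript for sedentary PBMT, fatigued PBMT and fatigued against sedentary controls, with KRAB genes and other members as points of their own colour and the medians of the other genes in 10 GC classes as a line. In sedentary PBMT the line runs from 0.08 in the lowest class to -0.09 in the highest (0.01 and 0.01 without sedentary control replicate 4), and the member correlation (Spearman) is -0.439, or 0.0333 without that mouse. In fatigued against sedentary controls it is 0.493, or 0.643 without that mouse.

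Related zinc finger families at the same level had medians on either side of that of the members (0.09). In sedentary PBMT the median was 0.08 over 32 Zbtb genes (23 higher), 0.05 over 15 Zscan and Zkscan genes (10 higher), 0.04 over 16 Klf and Sp genes and -0.0019 over 14 Zc3h genes, which carry CCCH fingers. These were 0.06, 0.04, 0.08 and 0.0050 without sedentary control replicate 4, where the members had 0.07. The 22 genes whose Zfp symbol has a letter after the number, such as Zfp36l1, had a median of 0.18 with 19 higher, above that of the members, and of 0.13 without that mouse. In the difference between states these medians were -0.06 for Zbtb, -0.07 for Zscan and Zkscan, 0.10 for Klf and Sp and -0.22 for the lettered Zfp genes, and without that mouse 0.04 for Klf and Sp and -0.15 for the lettered Zfp genes. edgeR called 0 of these genes in either PBMT comparison or in the difference, while DESeq2 and limma voom each called 1 Zbtb gene lower in sedentary PBMT. Of all genes, edgeR called 4 in sedentary PBMT, DESeq2 60 and limma voom 50. At an unadjusted p under 0.05 in sedentary PBMT, 3 Zbtb genes were higher and 1 was lower, 2 lettered Zfp genes were higher and 0 lower, 2 Klf and Sp genes were higher and 2 lower, 1 Zc3h gene was higher and 1 lower, and 0 Zscan and Zkscan genes were either by edgeR, where 3.33% of all genes were higher and 4.30% lower. DESeq2 gave 4 and 1, 2 and 0, 3 and 2, 1 and 1, and 0 and 0 in the same order (2.12% and 2.90% of its genes), and limma voom 5 and 1, 3 and 1, 4 and 2, 1 and 1, and 0 and 0 (6.72% and 7.79%).

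The KRAB corepressor machinery was taken as a list of 26 genes. In sedentary PBMT its median was 0.05 with 19 higher, and in fatigued PBMT -0.03 with 7 higher; edgeR called 0 of them in either, with 2 and 0 at an unadjusted p under 0.05. DESeq2 called 0, with 3 and 0, and limma voom 0, with 4 and 0. Those in sedentary muscle were all higher, where 3.33%, 2.12% and 6.72% of the genes of edgeR, DESeq2 and limma voom were higher at that p. The 2 of edgeR were Cbx5, a heterochromatin protein (log2 fold change 0.20), and Mta1, a subunit of the NuRD complex (0.14). Trim28 itself stood at 36.7 ± 8.8 CPM in sedentary controls and at 33.6 ± 2.0 CPM after PBMT (mean ± SD, n = 6), a log2 fold change of -0.13, or 0.02 without sedentary control replicate 4. Setdb1 was at 13.4 ± 0.91 and 13.9 ± 1.3 CPM in the same groups. In fatigued against sedentary controls edgeR called 3 of the 26 higher, where 9.36% of all genes were called higher, and 0 lower: Dnmt1 (0.35, edgeR adjusted p = 0.0154), Uhrf1 (1.35, adjusted p = 0.0340) and Setdb1 (0.24, adjusted p = 0.0496). DESeq2 called 3 higher and 1 lower, where it called 3060 of all genes in either direction. The counts of limma voom were 8 and 2, where 16.4% and 15.8% of all genes were called. Without sedentary control replicate 4 edgeR called 8 and 1 (13.6% and 13.5%), among them Trim28 (0.26, edgeR adjusted p = 0.0034).

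Members with a KRAB box were also low in fatigued controls relative to sedentary controls, a comparison in which state and sequencing project cannot be told apart. edgeR called 18 KRAB genes lower and 1 higher, 8 fingers without KRAB lower and 2 higher, and, without C2H2 fingers, Zfp36 lower and Zfp703 higher. In all, 27 of 220 members fell, where 7.16% of the 14323 genes tested fell, and 4 rose, where 9.36% of genes rose. The median was -0.26 over KRAB genes (15 of 95 higher), -0.05 over fingers without KRAB (48 of 121 higher) and -0.13 over all members, against -0.0040 over all genes. With a GC trend removed in each library the median over KRAB genes was -0.16. The count of lower members changed with the fit, and so did the share of all genes called lower. It was 14 with a replicate block (4.52% of all genes), 15 without sedentary control replicate 5 (5.14%) or fatigued control replicate 6 (4.62%), 19 with no filter (2.67%) and 35 with DESeq2 (4.98%). Without sedentary control replicate 4, 69 members were called lower and 7 higher, where 13.5% of all genes were called lower and 13.6% higher, with a median of -0.34 over KRAB genes and of -0.03 over fingers without KRAB (55 of 121 higher). With limma voom, which gives outlying libraries less weight, 82 were called lower and 8 higher, where 15.8% and 16.4% of all genes were. The groups did not overlap for 6 members that were lower (Zfp36, Zfp52, Zfp563, Zfp949, Zfp710 and Zfp3), where the background was 3.25%, and for 1 that was higher (Zfp512), where it was 4.81%. Relative to genes of like length and GC content the KRAB genes lay lower by a median difference of -0.18, with 15 of 95 above, and by -0.20 without replicate 4. This comparison shares its control mice with both PBMT comparisons.

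Zfp52, a KRAB gene on chromosome 17 (ENSMUSG00000051341, 21535539 to 21562601, plus strand), stood at 4.23, 5.82 and 6.48 CPM in sedentary controls and at 2.23, 3.30 and 4.22 CPM in fatigued controls. All 6 fatigued controls lay below all 6 sedentary controls. It fell by 0.79 on the log2 scale (SE 0.15, edgeR adjusted p = 0.00247, exact permutation p = 0.00216), and without sedentary control replicate 4 its log2 fold change was -0.87. Zfp759, a KRAB gene on chromosome 13, stood at 2.08, 4.81 and 6.32 CPM in sedentary controls and at 1.90, 2.59 and 3.34 CPM in fatigued controls. The groups overlapped through sedentary control replicates 3 and 4, and 1 of 6 fatigued controls lay below every sedentary control. Zfp759 fell by 0.81 (SE 0.23, edgeR adjusted p = 0.0265) and by 0.96 without sedentary control replicate 4, but the call was lost when any of 6 other mice was left out or a replicate block was fitted (adjusted p = 0.0632). Zfp101 (log2 fold change -0.73, adjusted p = 0.0118) and Zfp51 (-0.69, adjusted p = 0.00315), also KRAB genes on chromosome 17, were lower in 5 of 6 and 4 of 6 fatigued controls than in every sedentary control.

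Among the members that rose, Zfp568, a KRAB gene known for repressing a placental Igf2 transcript, stood at 12.2, 14.8 and 16.3 CPM in sedentary controls and at 15.4, 19.9 and 23.9 CPM in fatigued controls. 5 of 6 fatigued controls lay above every sedentary control, with a log2 fold change of 0.42 (SE 0.11, edgeR adjusted p = 0.0169). Zfp335, a coregulator without KRAB known from neurogenesis and T cell maturation, stood at 8.96, 9.59 and 10.9 CPM and at 10.8, 13.1 and 15.8 CPM in the same groups. Its log2 fold change was 0.43 (SE 0.09, edgeR adjusted p = 0.00490), with 5 of 6 fatigued controls above every sedentary control. Zfp703, a transcriptional cofactor with no C2H2 finger match, stood at 19.9, 22.4 and 26.4 CPM in sedentary controls and at 21.1, 34.1 and 42.6 CPM in fatigued controls, and rose by 0.51 (SE 0.13, edgeR adjusted p = 0.0165) with 5 of 6 above every sedentary control. The call of Zfp703 was lost when a GC trend was removed (adjusted p = 0.0607).

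Medians over clusters of neighbouring members are given as a description, since a difference between clusters was not tested and their KRAB share differs. In fatigued against sedentary controls, the 13 members on chromosome 17 between 21008903 and 23564238, 12 of them KRAB genes, had a median of -0.31 with 4 called lower, and the 7 KRAB genes between 32765496 and 33394641 had a median of -0.38 with 2 called, where 7.16% of all genes were called lower. When sedentary control replicate 4 was left out, 11 of 13 and 6 of 7 were called lower, where 13.5% of all genes were. On chromosome 7, the 7 members between 127233061 and 127885996, of which 1 is a KRAB gene, had a median of -0.11 with 3 of 7 higher. In sedentary PBMT the largest median of a cluster, 0.34, was that of the 5 KRAB genes on chromosome 13 between 67121660 and 67755228, which include Zfp85, and it was 0.22 without replicate 4. In the difference between states their median was -0.39, or -0.26 without replicate 4. The 5 KRAB genes on chromosome 7 between 41633203 and 43593235, which include Zfp719, had a median of 0.15 in sedentary PBMT and of -0.37 in the difference, or 0.07 and -0.28 without replicate 4. Neighbouring members share sequence and origin and are not independent of each other.

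Zfp36 was the member with the largest change between the control groups. Zfp36 (ENSMUSG00000044786, chromosome 7, 28376784 to 28380253, minus strand) stood at 17.1, 18.3 and 24.5 CPM in sedentary controls and at 7.65, 10.6 and 11.7 CPM in fatigued controls. All 6 fatigued controls lay below all 6 sedentary controls. It fell by 0.94 on the log2 scale (SE 0.11, edgeR adjusted p = 4.85e-05, exact permutation p = 0.00216), and by 0.98 without sedentary control replicate 4. After PBMT it stood at 11.4, 22.8 and 37.6 CPM in sedentary mice and at 7.78, 11.8 and 19.2 CPM in fatigued mice. The PBMT mice spread on both sides of the sedentary controls, with 2 of 6 above and 2 of 6 below all of them, and in fatigued muscle 4 of 6 lay above every control. The log2 fold changes of Zfp36 with PBMT were 0.28 (SE 0.25, edgeR adjusted p = 0.764) and 0.37 (SE 0.20, edgeR adjusted p = 1.00), and their difference was 0.10 (SE 0.34, edgeR adjusted p = 0.976). With 1 mouse left out at a time these values ran from 0.09 to 0.42, from 0.23 to 0.48 and from -0.05 to 0.27.

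Neutrophil transcripts fell together with Zfp36 between the control groups. The sum of S100a8 and S100a9, the 2 neutrophil markers used, was 20.1, 26.1 and 43.2 CPM in sedentary controls and 0.101, 0.240 and 2.34 CPM in fatigued controls, with S100a9 the more abundant and neither at 0 in all mice. Both markers fell between the control groups (log2 fold changes -5.44 and -5.63, edgeR adjusted p = 2.89e-05 and 6.6e-05), and every fatigued control lay below every sedentary control in their sum. In sedentary PBMT the sum was 1.04, 23.2 and 47.1 CPM, and the lowest values, 1.04 and 3.87 CPM in replicates 1 and 2, belonged to the 2 mice with the lowest Zfp36, 13.9 and 11.4 CPM. In the sedentary comparison their signs were opposite: the sedentary log2 fold changes were -0.46 for S100a8, -0.42 for S100a9, -0.43 for Cxcr2 and -0.52 for Csf3r, none of them called, against 0.28 for Zfp36, which was not called either. With 1 mouse left out at a time the 4 values ran from -0.87 to -0.17 and that of Zfp36 from 0.09 to 0.42. In the fatigued comparison the signs were the same. There the log2 fold changes were 0.14 for S100a8, 1.01 for S100a9 and 0.65 for Csf3r, beside 0.37 for Zfp36, none of them called. Cxcr2 was not tested there. The sum of S100a8 and S100a9 was 0.415, 0.964 and 1.77 CPM in fatigued PBMT. The 5 genes whose deviations from the group means followed those of Zfp36 most closely over the 24 mice were Tmem150c (r = 0.755), Cxcr2 (0.705), Gm13456 (0.682), Csf3r (0.679) and Cd101 (0.667), of which Cxcr2 and Csf3r are receptors known from neutrophils. Cxcr2 and Csf3r also fell between the control groups (log2 fold changes -3.47 and -2.44, edgeR adjusted p = 0.00318 and 0.00103; with 1 mouse left out at a time, from -5.69 to -3.23 and from -3.02 to -2.24). The part of neutrophil content in the level of Zfp36 was not tested.

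**Figure D4:**
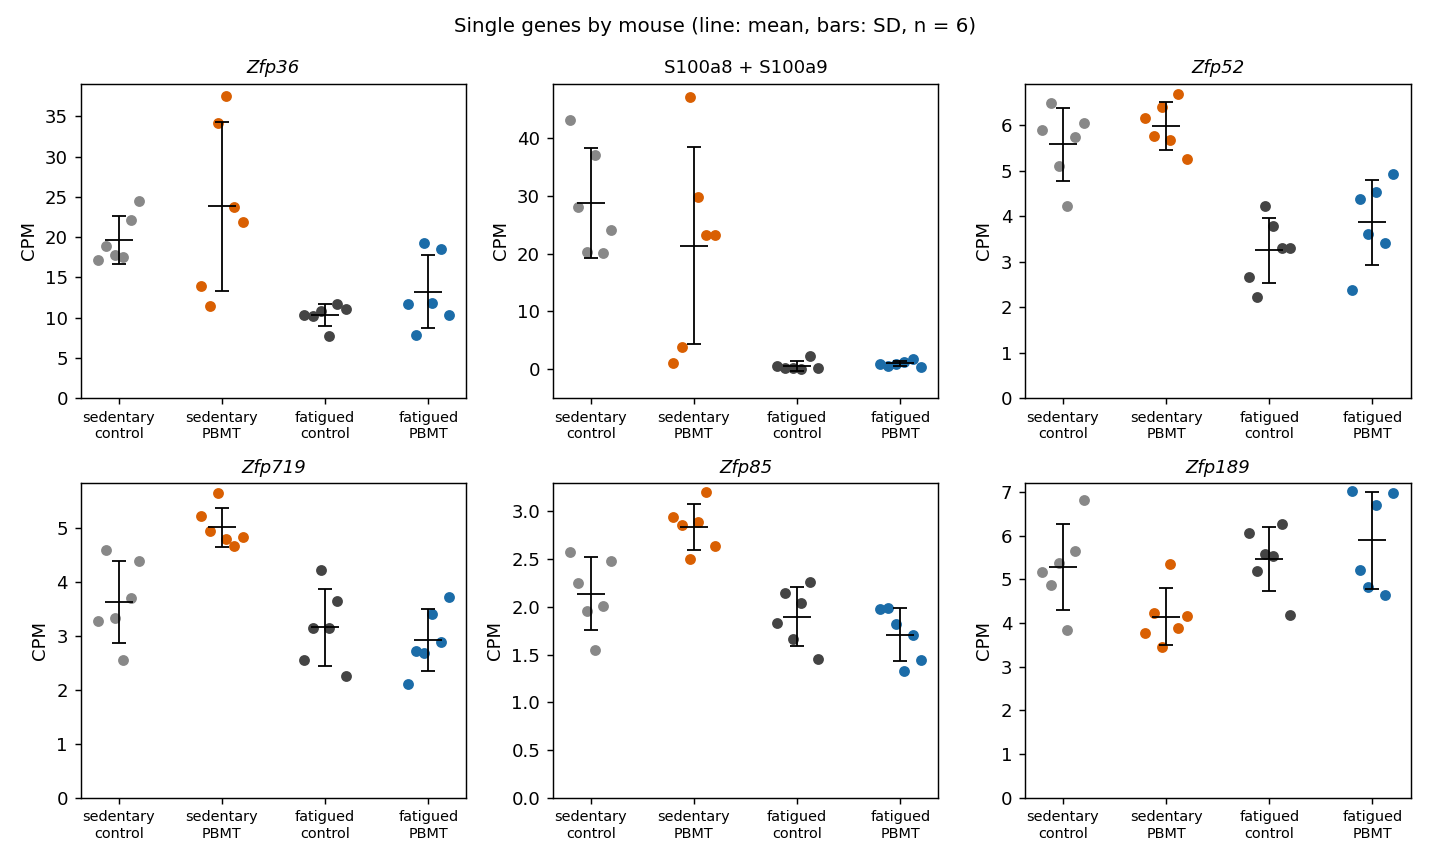
Level of Zfp36, of the sum of S100a8 and S100a9, and of Zfp52, Zfp719, Zfp85 and Zfp189 in CPM, 1 point per mouse in 4 groups of 6; horizontal bars are group means and whiskers 1 SD. All 6 sedentary PBMT points of Zfp719 (4.66 to 5.65 CPM) lie above the sedentary controls (2.55 to 4.59 CPM), and all fatigued controls of Zfp36 (7.65 to 11.7 CPM) lie below the sedentary controls (17.1 to 24.5 CPM).

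Partners of Zfp36 in mRNA decay were taken as a list of 15 genes. Its relatives Zfp36l1 (log2 fold change 0.63, edgeR adjusted p = 0.0075) and Zfp36l2 (0.57, adjusted p = 0.0019) rose between the control groups while Zfp36 fell, and the decapping enzyme Dcp2 fell (-0.33, adjusted p = 0.0434); the other 12 were not called. These 2 higher and 1 lower stand where 9.36% and 7.16% of all genes were called. DESeq2 called 3 higher and 1 lower (6.00% and 4.98% of its genes), limma voom 3 and 5 (16.4% and 15.8%), and edgeR without sedentary control replicate 4 called 2 and 4 (13.6% and 13.5%). Zfp36l1 stood at 17.5 ± 4.1 CPM in sedentary controls and 27.2 ± 3.5 CPM in fatigued controls (mean ± SD, n = 6). With PBMT edgeR called 0 of the 15 in either state, with 1 and 0 at an unadjusted p under 0.05, and so did DESeq2 (1 and 0) and limma voom (2 and 0). Those in sedentary muscle were all higher, where 3.33%, 2.12% and 6.72% of the genes of edgeR, DESeq2 and limma voom were higher at that p. The 1 of edgeR was Zfp36l1 in sedentary muscle (log2 fold change 0.50, edgeR adjusted p = 0.349). Of 18 immediate early genes, the rapid transcriptional responders with which Zfp36 is often grouped, 2 rose with PBMT in sedentary muscle, Egr1 (2.98, edgeR adjusted p = 0.0139) and Ccn1 (1.14, adjusted p = 0.000384), and 0 were called in fatigued muscle. Among all genes tested edgeR called 3 higher and 1 lower in sedentary PBMT and 0 in fatigued PBMT. The call of Egr1 was lost without sedentary control replicate 4 (adjusted p = 0.0616) and that of Ccn1 was kept. DESeq2 and limma voom called the same 2 higher and Nr4a1 lower (edgeR log2 fold change -0.85, adjusted p = 0.119), and in fatigued muscle 0. In sedentary PBMT they called more of all genes than edgeR, 60 by DESeq2 and 50 by limma voom against 4. Between the control groups 9 of the 18 rose (8 without sedentary control replicate 4), where 9.36% of all genes rose, and 0 fell, with a median of 0.71, led by Atf3 (4.28, adjusted p = 2.11e-05) and Egr1 (2.94, adjusted p = 0.000433). Of 4 long nuclear RNAs, which report on the nuclear share of the RNA, 2 rose between the control groups, Meg3 (0.56, adjusted p = 0.00718) and Kcnq1ot1 (0.74, adjusted p = 0.0213), and 0 were called with PBMT by edgeR, DESeq2 or limma voom, with 0 at an unadjusted p under 0.05.

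Members with a known role had log2 fold changes with PBMT between -0.15 and 0.27, apart from Zfp143 and Zfp36, and 0 of them were called by edgeR, DESeq2 or limma voom. Zfp106 stood at 1344, 1845 and 2177 CPM in sedentary controls and at 1556, 2035 and 2219 CPM after PBMT, a log2 fold change of 0.13 (SE 0.11), and one of -0.04 (SE 0.11) in fatigued muscle. Zfp91, a ubiquitin ligase of noncanonical NF-kB signalling, fell between the control groups by 0.26 (SE 0.08, edgeR adjusted p = 0.0405), with 0 of 6 fatigued controls below every sedentary control, and had log2 fold changes of 0.10 (0.04 without sedentary control replicate 4) and 0.01 with PBMT. For regulators of adipocyte fate, the sedentary and fatigued log2 fold changes with PBMT were 0.09 and -0.05 for Zfp423, 0.05 and -0.03 for Zfp516, and 0.16 and 0.23 for Zfp521. For Zfp746, a repressor of Ppargc1a, they were 0.01 and -0.04, and for Zfp445, a KRAB guardian of imprints, 0.11 and 0.0043. For proteins of translation and RNA, they were 0.07 and 0.06 for Zfp598, which marks stalled ribosomes, -0.15 and 0.06 for Zfp622, a factor of the large ribosomal subunit, and 0.11 and 0.11 for the splicing factor Zfp326. Without sedentary control replicate 4 the sedentary values were 0.02 for Zfp423, 0.13 for Zfp516, 0.08 for Zfp746, 0.07 for Zfp445, 0.20 for Zfp598, 0.03 for Zfp622 and 0.06 for Zfp326. Zfp217, a subunit of demethylase corepressor complexes, was higher by 0.27 in sedentary muscle (edgeR adjusted p = 0.639; 1 of 6 PBMT mice above every control), and Zfp260, a cardiac regulator, by 0.18 (adjusted p = 0.648; 4 of 6), or 0.12 without replicate 4. The remaining named members, Zfp148, Zfp207, Zfp281, Zfp292, Zfp346, Zfp609 and Zfp638, had sedentary log2 fold changes between 0.05 and 0.20 (between 0.0014 and 0.19 without replicate 4, apart from Zfp207 at -0.04) and fatigued ones between -0.09 and 0.05.

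Promoter sequences, 250 bases before to 50 after the start (RefSeq, build GRCm38.p6), were found for 182 of the 220 members. For each length from 8 to 11 bases, the stretch on either strand with the largest excess in members over the other protein-coding genes at the same level was taken. At 8 bases it was GAGTGACA, in 21 members (11.5%) and 16 of 85 KRAB genes (18.8%), against 1.54% of the other genes. It lies inside those at 9 bases, TGAGTGACA (16 members, 8.79% against 0.678%), and at 10 bases, CTGTCACTCA on the other strand (10 members, 5.49% against 0.427%). At 11 bases it was ACATTTCCCAG, in 10 members (5.49%) and 8 of 85 KRAB genes (9.41%), against 0.728%. These stretches were picked for their excess, so the percentages describe the members and are no test, and 8 of the 10 members with ACATTTCCCAG lie together on chromosome 7. The median log2 fold change in sedentary PBMT was 0.12 over members with GAGTGACA (16 of 21 higher), 0.13 with TGAGTGACA (13 of 16), 0.06 with CTGTCACTCA (7 of 10) and 0.16 with ACATTTCCCAG (10 of 10), where the members whose promoter was found without each had medians of 0.09, 0.09, 0.09 and 0.08. When sedentary control replicate 4 was left out the medians were 0.02, 0.05, 0.0055 and 0.12 with each and 0.07, 0.07, 0.07 and 0.06 without. In the difference between states those with each were -0.20, -0.18, -0.07 and -0.22 in the same order, and without replicate 4 -0.13, -0.11, -0.05 and -0.18. What binds these stretches was not tested. Shown, with the stretch in capitals, are the promoters of Zfp85 (chr13:67755153-67755452, minus strand) and Zfp260 (chr7:30094826-30095125, plus strand), which hold ACATTTCCCAG on the other strand and were higher in sedentary PBMT, and of Zfp959 (chr17:55891843-55892142, plus strand), which holds GAGTGACA on the other strand and was lower there.
Zfp85: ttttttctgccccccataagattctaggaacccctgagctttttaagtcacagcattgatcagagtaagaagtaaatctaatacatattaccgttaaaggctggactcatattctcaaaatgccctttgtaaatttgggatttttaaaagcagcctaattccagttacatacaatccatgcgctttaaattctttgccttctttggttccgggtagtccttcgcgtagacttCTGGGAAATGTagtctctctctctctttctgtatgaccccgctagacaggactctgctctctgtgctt
Zfp260: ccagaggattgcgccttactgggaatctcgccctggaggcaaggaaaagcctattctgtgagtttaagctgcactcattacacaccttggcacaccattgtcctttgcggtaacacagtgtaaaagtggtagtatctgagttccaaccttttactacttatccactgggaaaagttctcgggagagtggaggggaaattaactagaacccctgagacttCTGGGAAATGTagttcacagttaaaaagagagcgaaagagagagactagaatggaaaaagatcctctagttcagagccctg
Zfp959: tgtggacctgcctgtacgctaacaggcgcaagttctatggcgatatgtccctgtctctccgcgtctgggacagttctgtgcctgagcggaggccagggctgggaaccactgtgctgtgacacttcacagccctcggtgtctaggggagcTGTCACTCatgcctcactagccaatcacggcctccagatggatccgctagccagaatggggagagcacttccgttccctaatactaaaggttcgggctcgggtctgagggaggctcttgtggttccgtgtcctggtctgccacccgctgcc

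Markers of other cell types were low beside those of muscle fibres. The 9 fast-fibre markers, led by Myh4 and with none at 0, summed to medians of 119809 CPM in sedentary controls, 133180 in sedentary PBMT, 168374 in fatigued controls and 163117 in fatigued PBMT, and 3 of them (Acta1, Myh4 and Tnnt3) rose between the control groups. The 4 slow-fibre markers summed to medians between 9.59 and 15.9 CPM over the groups, with highest mice of 64.5 CPM in fatigued controls and 76.8 CPM in fatigued PBMT. By mean level Myh7 led them in the fatigued groups, Tnnt1 in sedentary controls (5.15 CPM, Myh7 2.11) and Myl2 in sedentary PBMT (4.81 CPM, Myh7 2.96). The 4 keratinocyte markers, led by Krt10, summed to medians of 1.71 to 2.51 CPM, with sedentary PBMT replicates 4 and 2 the highest mice (25.4 and 9.08 CPM, next 5.21). The median sums over the groups ran from 85.4 to 94.5 CPM for 5 erythrocyte markers (led by Hbb-bs). For 3 adipocyte markers they ran from 7.41 to 11.3 CPM (led by Adipoq in sedentary and by Cidec in fatigued groups). The median sums ran from 192 to 243 CPM for 3 endothelial markers (led by Cdh5). For 2 satellite cell markers they ran from 2.34 to 3.05 CPM (led by Pax7). The 4 myeloid markers, led by Lyz2, summed to medians of 46.8 CPM in sedentary controls, 32.2 in sedentary PBMT, 57.4 in fatigued controls and 49.1 in fatigued PBMT, and the 3 interstitial markers, led by Dcn, to 344, 281, 397 and 385 CPM. In sedentary PBMT, where most members were higher, 4 of 4 myeloid markers were lower (log2 fold changes of -0.68 for Adgre1, -0.59 for Lyz2, -0.55 for Csf1r and -0.55 for Cd68), and so were 3 of 3 interstitial markers (-0.26 for Ly6a, -0.18 for Pdgfra and -0.17 for Dcn), 2 and 1 of them at an unadjusted p under 0.05. The 2 markers that were higher there at that p were Pax7 of the satellite cells (0.46, and -0.61 in the difference between states) and Kdr of the endothelial cells (0.45), with 0.37 and 0.52 without sedentary control replicate 4, and 2 of 2 satellite cell, 2 of 3 endothelial and 6 of 9 fast-fibre markers were higher. The 7 myeloid and interstitial markers were again lower without that mouse (-0.81 to -0.21). In fatigued PBMT 3 of 4 myeloid, 3 of 3 interstitial, 0 of 2 satellite cell, 3 of 3 endothelial and 1 of 9 fast-fibre markers were higher. No marker was at 0 in all mice. Of the 39 that were tested edgeR called 0 with PBMT in either state. At an unadjusted p under 0.05, 2 were higher and 3 lower in sedentary muscle, where 3.33% and 4.30% of all genes were. In fatigued muscle there were 0 at that p, where 1.08% of all genes were higher and 0.501% lower. DESeq2 called 0 of 42, and limma voom 1 lower in sedentary muscle (Ly6a), where it called 50 of all genes. At the same unadjusted p, DESeq2 had 2 higher and 3 lower in sedentary muscle (2.12% and 2.90% of its genes). There limma voom had 5 higher and 7 lower (6.72% and 7.79%). In fatigued muscle DESeq2 had 0 and limma voom 1 higher (1.84%). Between the control groups edgeR called Cidec, Csf1r, Pdgfra and Ly6a higher besides the fibre genes, and S100a8 and S100a9 lower. These are 7 higher and 2 lower of 39, where 9.36% of all genes were called higher and 7.16% lower. The calls of Cidec, Csf1r and Ly6a were lost without sedentary control replicate 4 (adjusted p = 0.0535, 0.0588 and 0.0711). The log2 fold change of Cidec was 1.31 with all mice and 1.32 without that mouse, and that of Csf1r 0.54 and 0.48. Whether these differences bear on the Zfp values was not tested.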

How the data were processed

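RNA of the TA muscle of 24 mice was measured, 6 in each of 4 groups. The authors deposited raw counts, whole numbers for each Ensembl gene with 1 mouse per table, from poly(A)-selected libraries made with a directional kit and sequenced as 150-base paired ends, with no normalization. The submitters' processing notes name Trimmomatic, STAR 2.7.1a, Picard 2.20.4, StringTie 2.0.4, featureCounts 1.6.0, HTSeq and the build GRCm38, without roles; the strand setting is not given in the sources used here, and reads that fit several genes may have been dropped or assigned, which bears on near-identical genes. Symbols, types and exons came from GENCODE M21, and proteins were translated from its transcripts; promoters came from RefSeq (GRCm38.p6). A promoter search with 5 known motifs was run first and is not reported, because no reference table used here holds those motifs. The shared stretches were found after that, at 4 lengths, all of which are given.

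Counts were fitted with edgeR 4.0.16 in R 4.3.3 (TMM scaling, filterByExpr with a minimum count of 10, robust quasi-likelihood test, two-sided, Benjamini-Hochberg over all genes tested, threshold 0.05), within each state, across all 24 mice for the difference, and between the control groups. The fits were checked on simulated data. All 220 members passed the filter in each comparison. Group levels are CPM of the TMM-scaled library; the rule used the unscaled total. Permutation tests are exact and two-sided on mean log2 CPM with a prior count of 2. Fingers were counted by the pattern of 2 cysteines, a loop of 12 residues and 2 histidines, and the KRAB A box with up to 2 mismatches to 10 fixed residues; 7 members with 3 or 4 mismatches were taken as without KRAB. Alternatives were DESeq2 1.42.0, its size factors in edgeR, limma 3.58.1 voom with quality weights, other filters, 1 model for all mice, a replicate block, trends on exon length or GC content removed by loess, levels of 1 and 5 CPM, and leaving out each mouse. Values without sedentary control replicate 4 for the like genes, other gene lists, correlations, clusters, finger and GC classes and promoter stretches, the ranges of markers, and the shares of all genes called or at an unadjusted p under 0.05 in the other fits were added after the data were seen. Tables were handled in Python 3.11.15 with pandas 2.3.3 and scipy 1.17.1.

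Named members were, by a written rule, the 5 largest differences in each direction at an unadjusted p under 0.05 or the 3 smallest p where fewer passed, the 3 largest called changes between control groups, the 5 highest levels per kb, the threshold neighbours, members with a known role (Zfp697, on that list, was below the level), and the 5 genes most like Zfp36; members of the count of groups that did not overlap, and those shown for their cluster or sequence, were added after their values were seen. Members and lists were chosen with earlier results of these data known. The marker sum of 1 cell type is not reported here.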

Additional observations from a re-analysis of the deposited data

Results flagged for a closer look

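A sample lay far from the other 5 of its group for 12 of 124 groups (31 quantities in 4 groups each). For independent quantities chance gives about 1 in 20. Here many were members named for their differences in these mice, and some scores overlap, so the count is no test of an excess. Sedentary control replicate 4 accounts for 4 of them: its mitochondrial genes took 3.24% of counts where the next lowest sedentary control had 15.5%, its fast-fibre markers summed to 155193 CPM where the next had 123003, and it was the highest of its group for Zfp593 (9.09 CPM, next 5.96) and Zfp668 (5.02 CPM, next 3.92). The difference of the PBMT effect between the states for Zfp593 was a log2 value of 0.34 with this mouse and 0.13 without it. Among fatigued controls, replicate 4 was the lowest for Zfp36 (7.65 CPM, next 10.3) and Zfp959 (2.45 CPM, next 2.66), replicate 5 was the highest for Zfp28 (2.42 CPM, next 2.06) and for the sum of S100a8 and S100a9 (2.34 CPM, next 0.545), and replicate 3 was the highest for Zfp667 (5.30 CPM, next 4.77). Among sedentary PBMT mice, replicate 1 was the highest for Zfp141 (7.08 CPM, next 5.61), replicate 2 was the highest for Zfp703 (27.8 CPM, next 22.0), and replicate 6 was the lowest for Zfp608 (2.01 CPM, next 3.00). The causes were not tested.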

How the results depend on the processing

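With each mouse left out in turn, 0 members were called in the PBMT comparisons and in the difference. The median log2 fold change over members ranged from 0.06 to 0.12 in sedentary PBMT, from -0.06 to -0.01 in fatigued PBMT, from -0.15 to -0.10 in the difference and from -0.18 to -0.11 between the control groups. At an unadjusted p under 0.05 the counts ranged from 11 to 32 higher and 0 to 3 lower in sedentary PBMT (20 and 1 with all mice), from 0 to 3 higher and 1 to 11 lower in fatigued PBMT (0 and 7), and from 0 to 2 higher and 13 to 29 lower in the difference (1 and 19). With all mice the shares of all genes were 3.33% and 4.30%, 1.08% and 0.501%, and 2.95% and 1.45% in that order. Most of the shares with 1 mouse left out are not given, so these ranges are not set against those of all genes. In sedentary PBMT the higher count was 11 without control 3, 32 without control 6, 32 without PBMT 2 and 13 without PBMT 4, and the lower count 3 without control 4 and 0 without control 6. In fatigued PBMT the lower count was 3 without control 2, 3 or 5, 4 without control 4, 1 without PBMT 1, 11 without PBMT 2 and 2 without PBMT 3 or 5, and the higher count was 3, 2, 1 and 1 without PBMT 1, 2, 5 and 6 and 1 without control 2. In the difference, 29 were lower and 0 higher without sedentary control 6, and 2 were higher without fatigued PBMT 6. Between the control groups 3 to 7 were called higher and 15 to 69 lower (4 and 27 with all mice): 69 and 7 without sedentary control 4, and 15 lower without sedentary control 5 or fatigued control 6. The number of all genes called moved as well, from 1681 to 3956 over the same fits (2366 with all mice), with the highest without sedentary control 4. With limma voom, 8 were called higher and 82 lower between the control groups, where 4604 of all genes were called in either direction. Its counts at an unadjusted p under 0.05 were 3 lower in sedentary PBMT (7.79% of all genes), 3 higher and 3 lower in fatigued PBMT (1.84% and 1.00%), and 12 lower in the difference (2.61%). The lower count in sedentary PBMT was 2 with a trend on length or GC content removed and 2 with all 24 mice in 1 model, which gave 1 higher in fatigued PBMT; with no filter the lower count there was 4. With a replicate block it was 3, and between the control groups 14 were called lower, where 1714 of all genes were called in either direction. No sedentary mouse correlated best with its own number (r from -0.0855 to 0.0838), while 3 of 6 fatigued mice did (-0.103 to 0.342, with 4 of 6 over 0.1). The main fits do not take the numbers as pairs. The difference of Zfp36 (0.10) was -0.0438 with limma voom, -0.05 without fatigued PBMT 3, -0.03 without fatigued PBMT 5, -0.02 without sedentary PBMT 1, -0.0490 without sedentary PBMT 2, and at most 0.27 (without sedentary PBMT 4). Of 765 refitted values of 32 single results, 752 kept direction and side of the threshold, 8 lost their call (7 of Zfp759, 1 of Zfp703) and 5 changed sign. A level of 1 CPM gave 264 members and one of 5 CPM 149, with sedentary medians of 0.09 and 0.09; a grid of 5 by 5 classes or the longest transcript as length gave median differences from like genes of 0.07 and 0.06 in sedentary PBMT. The cause was not tested.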

Other observations

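KRAB genes moved together from mouse to mouse more than other members. As deviations from the group means over 24 mice, the median correlation between pairs was 0.168 over all members, 0.351 in KRAB genes, 0.110 in fingers without KRAB and -0.00091 in other protein-coding genes at the same level. Without sedentary control replicate 4 these were 0.187, 0.282, 0.131 and 0.00083; genes of a library share its depth and composition.

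The 92 Zfp genes below the level that were tested in sedentary PBMT had a median log2 fold change of 0.13 with 69 higher, and in the difference 98 such genes had one of -0.14 with 33 above 0. The CpG ratio of the promoter, observed over expected, had a median of 0.688 in members and 0.600 in KRAB genes, against 0.790 in other protein-coding genes at the same level.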
